A study of Mus musculus with 2 samples.

Results

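Cells of the mouse dorsal telencephalon that carried RNA of radial glia together with RNA of the proneural factor *Neurog2* were selected from 2 single cell RNA sequencing (scRNA-seq) libraries. The members were chosen by measured values, the raw counts of unique molecular identifiers (UMIs, each marking 1 captured RNA molecule) of 11 genes. A member had 4 or more UMIs summed over *Sox2*, *Hes1*, *Hes5* and *Sox9*, 2 or more of *Neurog2*, at most 1 of *Eomes*, at most 2 of *Neurod2* and *Neurod6* together and at most 1 of *Gad1*, *Gad2* and *Dlx6os1* together. These bounds found 265 cells, 86 in replicate 1 and 179 in replicate 3, among 12936 cells kept and 2023 cells that met all bounds other than the one on *Neurog2*. Both libraries came from E14.5 EomesMllt3 embryos, controls from the Eomes-Cre mouse line that the labels give as WT, and the study's methods give the strain as C57BL/6J. The labels name the tissue as brain hemispheres, whereas the dissection they describe took the dorsal telencephalon alone. Whether such a control carries Cre is not given in the sources used here, nor whether the 2 samples are littermates. With 1 group, gates of cells were compared within the same libraries, and p-values measure the spread between these 2 samples. In the study, the libraries served to pair ligands of SST+ cortical interneurons with receptors of radial glial cells (RGCs) or of intermediate progenitors (IPCs).

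RGCs line the ventricle, divide there and hold contact with their neighbours through apical junctions. Notch signalling keeps them in this state. A cell that receives Delta from a neighbour makes HES1 and HES5, which repress proneural genes, whereas a cell in which NEUROG2 prevails makes the ligand itself, leaves the ventricle and becomes an EOMES-positive IPC or a neuron. In the pallium *Neurog2* is the leading proneural gene, and its RNA oscillates in cycling RGCs before it is held high.

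Further gates served for comparison. The *Neurog2*-negative RGC gate had the same bounds with 0 *Neurog2* UMIs and held 1467 cells (460 and 1007 in replicates 1 and 3). The gate with exactly 1 *Neurog2* UMI held 291 cells (76 and 215). The IPC gate had 2 or more *Eomes* UMIs with the same upper bounds on *Neurod2*, *Neurod6* and the GABAergic genes, and held 581 cells (227 and 354). UMIs were summed per gate and replicate, giving 8 sums of 1145886 to 14153343 UMIs, and levels are given as CPM, the UMIs of a gene per 1e+06 UMIs of a sum. Counts of 1 gene in 2 gates share a library and a 3' protocol, whereas levels of different genes are not corrected for capture or length and were not compared.

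The libraries held 6163 and 8870 barcodes, with medians of 9802 and 9754 UMIs, and 23 barcode sequences occurred in both, 1 of them a member. Members made up 13.8% of the RGC gate in replicate 1 (95% Wilson interval 11.3 to 16.8) and 12.8% in replicate 3 (11.1 to 14.6), or 1.58% and 2.39% of all kept cells. In barcodes with 10 or more UMIs of vascular, meningeal, microglial or similar non-neural markers, 1 of 107 and 4 of 224 had 2 or more *Neurog2* UMIs. Those shares, 0.935% and 1.79% at median depths of 15604 and 12573.5 UMIs, are the background of the gate. Members had median depths of 11602.5 and 12833 UMIs, against 13806.5 and 13041 in the *Neurog2*-negative gate. Intervals of shares cover counting error only.

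The label of RGCs in transition was checked on the genes of the rule first, as a description without a test. *Neurog2* stood at 277 and 237 CPM in members, 66.3 and 69.8 CPM in the gate with 1 UMI, and 552 and 457 CPM in the IPC gate. *Sox2*, a factor of neural progenitors, was at 283 and 190 CPM in members and 309 and 233 CPM in *Neurog2*-negative cells. *Sox9*, another progenitor factor, gave 223 and 244 CPM against 271 and 255 CPM. The Notch effector *Hes1* gave 93.7 and 96.4 CPM against 115 and 125 CPM, and *Hes5* gave 74.8 and 71.1 CPM against 111 and 72.8 CPM. All 4 RGC genes lay above their IPC levels in both replicates, since *Hes1* was at 31.2 and 16.1 CPM and *Hes5* at 33.9 and 18.6 CPM in IPC-gate cells. *Eomes* was capped in members and reached 18 and 13 CPM there, with 24.4% and 19.6% of members holding the 1 UMI allowed, against 3.26% and 3.97% of *Neurog2*-negative cells. Members thus carried the RNA of both states by construction.

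Values beside the bounds are given once, without a test. Members with exactly 2 *Neurog2* UMIs (38 and 87 cells) had 279 and 195 CPM of *Sox2*, and cells with 1 UMI, just outside, had 292 and 227 CPM. *Gadd45g* was at 68.3 and 101 CPM just inside and 16.6 and 51.3 CPM just outside. The cells that passed all bounds except that they held 2 *Eomes* UMIs numbered 15 in each replicate, with 502 and 463 CPM of *Gadd45g*, against 195 and 465 CPM in the 21 and 35 members with 1 *Eomes* UMI. At the lower bound on the RGC genes, 14 and 38 members had a sum of 4, and 5 and 25 cells fell just outside with a sum of 3.

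Promoter sequence is shown for 4 genes that hold a motif match, since NEUROG2 binds E-boxes and RBPJ, the DNA-binding partner of Notch, has its own motif. *Srrm4*, *Elavl4* and *Fabp7* were called in the comparison below, whereas *Hes5* is a gene of the rule and was not tested. Sequences are RefSeq promoters of build GRCm38.p6, the assembly of the mm10 build named in the submitters' processing notes, cut to bases upstream of the start site and written in the gene's direction. Capitals mark the E-box CAGATG (or CATCTG, the same motif on the other strand) in the first 3 and the RBPJ motif GTGGGAA in *Hes5*.

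Srrm4, chr5:116591943-116592002, minus strand: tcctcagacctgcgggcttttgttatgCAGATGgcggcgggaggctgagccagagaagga

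Elavl4, chr4:110287534-110287593, minus strand: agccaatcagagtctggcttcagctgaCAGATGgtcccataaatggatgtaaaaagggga

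Fabp7, chr10:57784778-57784837, plus strand: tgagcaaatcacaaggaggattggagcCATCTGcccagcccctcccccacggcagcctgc

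Hes5, chr4:154960813-154960873, plus strand: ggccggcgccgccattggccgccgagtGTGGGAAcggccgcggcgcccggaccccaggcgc

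A gene can have several promoters, and each distance is to the start site of the promoter that held the match. It was 158 bases for the E-box of *Srrm4* and 118 for that of *Fabp7*, although *Srrm4* was higher and *Fabp7* lower in members. The E-box shown for *Elavl4* lay 39 and 55 bases before the start sites of overlapping promoters. A further *Elavl4* promoter held a match on the other strand at 101 bases. Of the 10 genes named as most raised, 7 had a promoter in the table and 1 of them, *Srrm4*, held CAGATG or CATATG on either strand within 300 bases. Of the 10 named as most lowered, 8 had a promoter and 2 (*Fabp7* and *Rbms1*) held such a match. Over all 32851 promoters of that length the share was 20.3%. That share is per promoter, whereas the counts are of genes, with 9 promoters for the 7 genes and 12 for the 8. GTGGGAA occurred in 6.38% of all promoters, and *Hes5* held a second match 226 bases before its start on the other strand. These matches describe letters in a short window and say nothing of binding.

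The comparison of members with *Neurog2*-negative RGCs asked which other RNAs differ when *Neurog2* is present. With the 11 rule genes left out, 12445 genes were tested by the quasi-likelihood method of edgeR, and p-values were adjusted after Benjamini and Hochberg with a threshold of 0.05. In members 58 genes were higher (0.466% of those tested) and 37 were lower (0.297%), each in both replicates. Some of the lower genes were near 0 in members, *Lum* with 0 and 0 UMIs and *Col3a1* with 1 and 3. Such genes entered the test through gates where they were higher, so the count of lower genes is a description only. The median log2 fold change over all genes tested was -0.01. With the replicate as a block, which pairs sums of the same library, 305 genes (2.45%) were higher and 409 (3.29%) lower, and these held all 58 and all 37.

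Known targets and partners of proneural factors were among the genes raised most. *Gadd45g*, a growth arrest gene and known NEUROG target at chr13:51846675-51848475, was at 157 and 251 CPM in members of replicates 1 and 3, and at 12.1 and 20.3 CPM in *Neurog2*-negative RGCs. The log2 fold change was 3.62 ± 0.43 (SE, edgeR adjusted p = 0.0124). In the gate with 1 *Neurog2* UMI *Gadd45g* was at 16.6 and 51.3 CPM, and in the IPC gate at 595 and 880 CPM.

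*Dll1*, the Delta ligand that a committing cell presents to its neighbours (chr17:15367354-15376932), was at 21.5 and 26.0 CPM in members and 3.83 and 1.84 CPM in *Neurog2*-negative cells, with a log2 fold change of 3.01 ± 0.34 (SE, edgeR adjusted p = 0.011). These levels rest on few molecules, 25 and 70 UMIs in 19 and 40 members. *Hes6*, a HES family member that opposes HES1, was at 116 and 171 CPM against 36.8 and 40.1 CPM, a log2 fold change of 1.92 ± 0.22 (SE, edgeR adjusted p = 0.011). *Insm1*, a zinc finger factor needed for the formation of basal progenitors, was at 62.7 and 34.6 CPM against 9.86 and 6.71 CPM, a log2 fold change of 2.47 ± 0.29 (SE, edgeR adjusted p = 0.0124). For all 3 genes the IPC gate was higher still.

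*Mfng*, a Fringe glycosyltransferase that modifies Notch, was at 23.2 and 36.8 CPM in members and 7.36 and 5.58 CPM in *Neurog2*-negative cells. *Srrm4*, a splicing factor of neuronal microexons, was at 43 and 75.1 CPM against 12.4 and 14.3 CPM. *Rcor2*, a subunit of the LSD1 corepressor complex, was at 43 and 46.9 CPM against 10.7 and 14.5 CPM. *Lzts1*, which acts in apical delamination, was at 30.9 and 28.6 CPM against 10.9 and 6.22 CPM. The log2 fold changes of these 4 genes were 2.26, 2.18, 1.80 and 1.81. The monocarboxylate transporter family member *Slc16a14* (30.9 and 23.1 CPM against 2.36 and 3.25 CPM) and the membrane protein gene *Serinc5* (36.1 and 40.9 CPM against 9.57 and 8.97 CPM) complete the 10 genes raised most, with log2 fold changes of 3.02 and 2.04. The 10 genes had edgeR adjusted p-values from 0.00443 (*Serinc5*) to 0.039 (*Lzts1*).

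**Figure D1:**
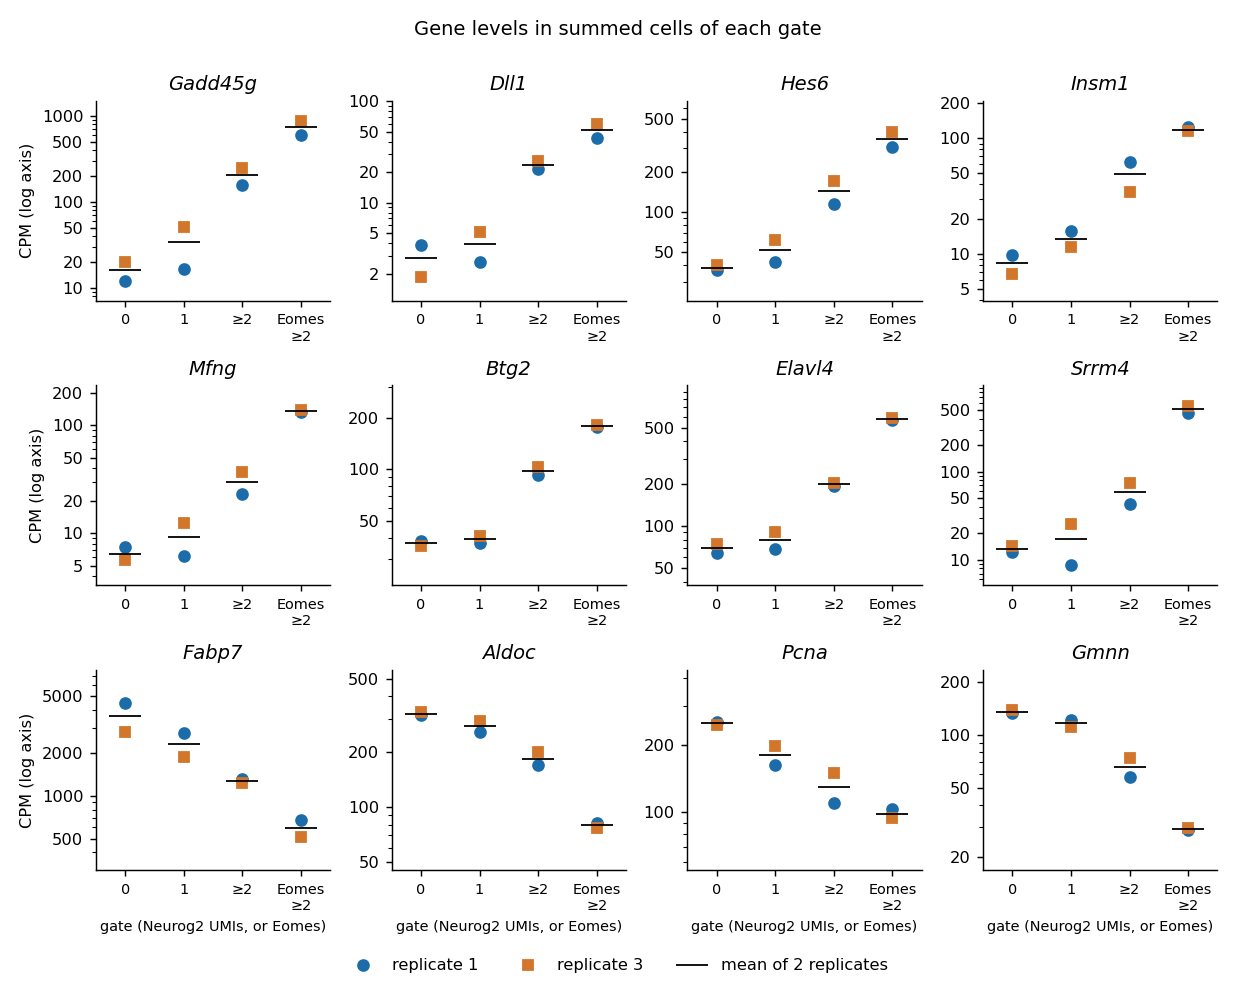
Levels of 12 genes (CPM, log axis) in the summed cells of 4 gates, with 1 point for each of replicates 1 and 3 and a line at their mean. The upper 8 genes step up from the gate with 0 Neurog2 UMIs to members (2 or more) and again to the Eomes gate, as *Gadd45g* does from 12.1 and 20.3 to 157 and 251 and then 595 and 880, and the lower 4 genes step down.

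Of the 21 genes on the proneural list 7 were called higher and 0 lower, beside 0.466% and 0.297% of all genes, with a median log2 fold change of 1.26, and 18 were above 0 in both replicates. Beside the genes above these were *Btg2*, an antiproliferative gene that marks neurogenic divisions, the neuronal RNA-binding protein gene *Elavl4*, the SoxC factor *Sox4* and the corepressor gene *Cbfa2t2*. *Btg2* was at 92.8 and 103 CPM against 38.4 and 36 CPM (log2 fold change 1.41 ± 0.11, edgeR adjusted p = 0.00443), and *Elavl4* at 193 and 203 CPM against 64.3 and 74 CPM (1.53 ± 0.14, edgeR adjusted p = 0.00561). *Sox4* was at 452 and 401 CPM against 242 and 218 CPM (0.90 ± 0.11, edgeR adjusted p = 0.0156). With the replicate block 12 of the 21 were called higher, among them *Sox11* and *Tcf4*, beside 2.45% of all genes. Of the proneural paralogue *Neurog1* members held 0.859 and 2.98 CPM, and the later factor *Neurod1* was at 5.16 and 3.35 CPM against 0.442 and 1.20 CPM, neither past the threshold.

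Among the Notch pathway genes tested the called change lay in 1 ligand and 1 modifier. The effectors *Hes1* and *Hes5* are genes of the rule and were not tested. Of the 5 ligand genes 3 passed the filter on low counts, *Dll1*, *Jag1* and *Dll3*. *Jag1*, a Serrate-type ligand, was at 12 and 6.7 CPM in members and 17.2 and 7.91 CPM in *Neurog2*-negative cells (edgeR adjusted p = 0.777). *Dll3*, a Delta family protein that acts within the cell, was at 0 and 1.12 CPM in members and at 9.75 and 20.8 CPM in the IPC gate. Of 21 tested receptor and processing genes 1 was called, *Mfng*, which was higher, beside 0.466% of all genes. *Notch1* was at 166 and 149 CPM in members against 167 and 128 CPM, and *Notch2* at 176 and 146 CPM against 232 and 211 CPM (log2 fold change -0.45, edgeR adjusted p = 0.337, and 0.0306 with the replicate block). None of 7 tested effector and Id genes was called by edgeR, *Id4* for example standing at 290 and 325 CPM against 315 and 356 CPM, and the median of the list was -0.33. The effector *Hey1*, at 18 and 17.5 CPM against 31.4 and 33.2 CPM, passed with the block alone (edgeR adjusted p = 0.0365).

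The RGC identity list held 25 genes, of which 2 were called lower and 0 higher, beside 0.297% and 0.466% of all genes, with a median of -0.31, and 18 were below 0 in both replicates. *Fabp7*, the brain lipid-binding protein of radial glia at chr10:57784923-57788450, was at 1310 and 1230 CPM in members and 4510 and 2800 CPM in *Neurog2*-negative RGCs (log2 fold change -1.51 ± 0.26, edgeR adjusted p = 0.0448). *Aldoc*, a glycolytic aldolase of the glial lineage, was at 168 and 198 CPM against 315 and 327 CPM (-0.78 ± 0.12, edgeR adjusted p = 0.0347). The intermediate filament gene *Vim* stood at 1880 and 1630 CPM against 1600 and 1390 CPM, and *Nes* at 203 and 184 CPM against 251 and 240 CPM. With the block 7 of the 25 were lower, beside 3.29% of all genes, including the glutamate transporter gene *Slc1a3* and the phosphatase gene *Ptprz1*, and 2 were higher, *Vim* and *Pax6*. *Pax6*, the pallial progenitor factor that activates *Neurog2*, was at 278 and 214 CPM against 207 and 179 CPM (edgeR adjusted p = 0.401, and 0.0316 with the block).

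The lists of the next stages gave no call. None of 9 tested IPC genes passed (median 0.31), nor any of 16 early neuron genes (median 0.29), by edgeR without the block. With the block 3 and 2 were higher, beside 2.45% of all genes. *Insm1* and *Btg2*, which also mark IPCs, and the neuronal gene *Elavl4* were counted on the proneural list and were raised. The neuronal tubulin gene *Tubb3* was at 58.4 and 70.7 CPM in members and 51.4 and 67.3 CPM in *Neurog2*-negative cells, far from 257 and 316 CPM in the IPC gate. Doublecortin, *Dcx*, was at 31.8 and 39.1 CPM against 18.5 and 19.1 CPM (edgeR adjusted p = 0.0982, and 0.0227 with the block). None of 15 tested genes on the list of junctions and delamination passed with or without the block. *Lzts1*, raised in members as given above, was not on that list. The adhesion gene *Cdh2* was at 1010 and 875 CPM against 1190 and 937 CPM, and *Pard3*, an apical polarity gene, at 396 and 455 CPM against 365 and 376 CPM.

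Regional genes of the pallium gave 0 calls of 16 tested by edgeR. With the block, which called 2.45% of all genes higher and 3.29% lower, the 4 genes *Lhx2*, *Emx1*, *Fezf2* and *Dmrta2* were higher. *Lhx2* was at 435 and 494 CPM against 313 and 346 CPM. At least 1 UMI of *Emx1*, which marks dorsal progenitors, was present in 65.1% and 72.1% of members and in 44.6% and 50.5% of *Neurog2*-negative cells. A repeat in cells with an *Emx1* UMI, chosen after seeing the data, called 30 genes higher and 7 lower, of which 27 and 6 were among the 58 and 37. Of 19 listed Eph, ephrin, neuroligin, somatostatin receptor, *Mllt3* and DNA methyltransferase genes 0 were called by edgeR. With the block the Eph receptor genes *Epha4* and *Ephb1* and the gene *Mllt3* were higher and *Dnmt1*, the maintenance methyltransferase, was lower. *Dnmt1* was at 74.8 and 69.2 CPM in members and 110 and 104 CPM in *Neurog2*-negative cells (log2 fold change -0.55, edgeR adjusted p = 0.0886, and 0.0173 with the block). *Epha4* was at 601 and 600 CPM against 465 and 488 CPM, and *Epha5* at 1200 and 1230 CPM against 1290 and 1260 CPM. Of 11 dissociation stress genes 0 were called, with a median of -0.32. At an unadjusted p under 0.05 edgeR found 2 of 7 effector and Id genes, 3 of 9 IPC genes, 3 of 16 early neuron genes, 1 of 15 junction genes, 6 of 16 regional genes, 7 of the 19 receptor, *Mllt3* and methyltransferase genes and 0 of 11 stress genes, beside 1725 of 12445 genes tested (13.9%). In these 7 lists DESeq2 called *Lhx2* and *Mllt3*, both higher.

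**Figure D2:**
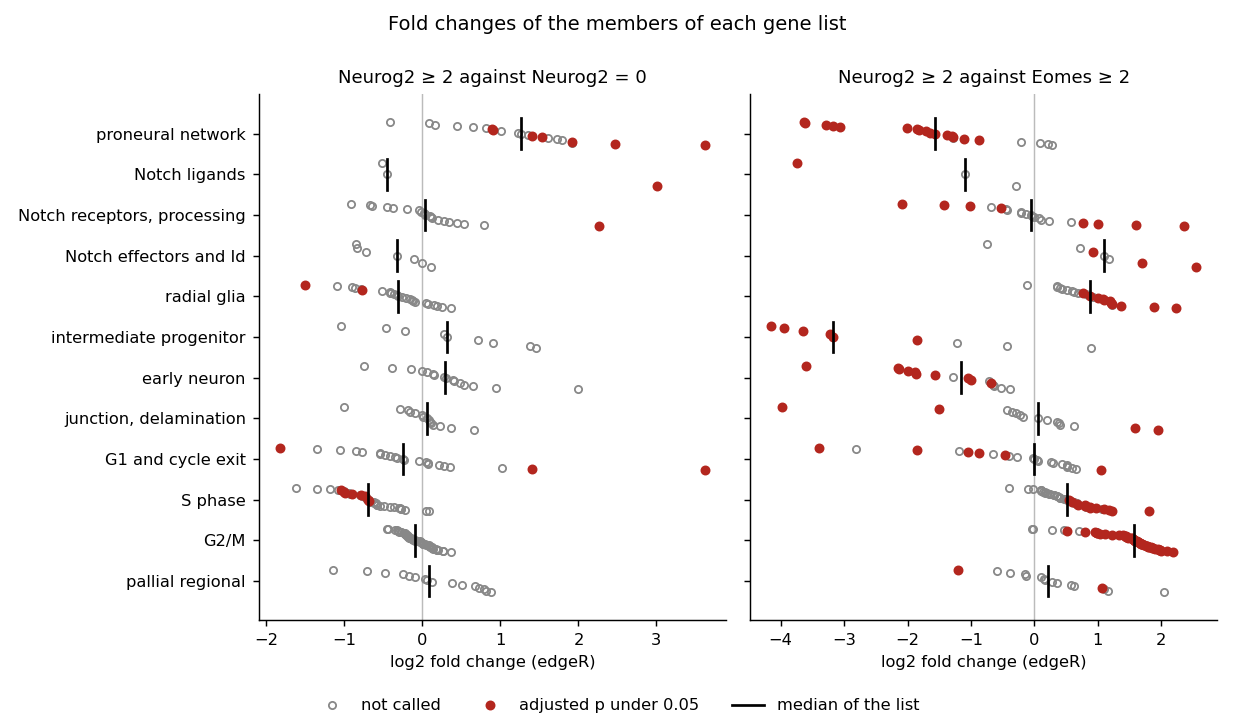
Log2 fold changes (edgeR) of the tested members of 12 gene lists, for members against Neurog2-negative RGCs at left and against the Eomes gate at right. Filled points have an adjusted p under 0.05 and black bars mark list medians, which at left are 1.26 for the proneural list and -0.70 for the S phase list.

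Genes of DNA synthesis were lower in members. Of 43 S phase genes 8 were called lower and 0 higher, beside 0.297% and 0.466% of all genes, with a median of -0.70. Of the 43, 41 were below 0 in both replicates, beside 4279 of 12445 over all genes. The replication clamp gene *Pcna* was at 110 and 150 CPM in members and 255 and 247 CPM in *Neurog2*-negative cells (log2 fold change -0.91 ± 0.15, edgeR adjusted p = 0.0434). *Gmnn*, geminin, which blocks re-licensing of origins, was at 57.6 and 74 CPM against 133 and 138 CPM (edgeR adjusted p = 0.0164). Among the others called lower were *Atad2*, *Uhrf1*, *Slbp*, *Dtl* and *Pola1*. *Uhrf1*, the partner of DNMT1 at replication forks, was at 46.4 and 40.9 CPM against 90.5 and 83.7 CPM. With the block 28 of the 43 were lower, beside 3.29% of all genes. Of 54 G2/M genes 0 were called by edgeR (4 at an unadjusted p under 0.05) or DESeq2, with a median of -0.09, and the proliferation gene *Mki67* was at 237 and 198 CPM against 280 and 213 CPM. Of 23 genes of G1 and cell cycle exit *Btg2* and *Gadd45g* were higher and *Cdkn1c* lower, beside 0.466% and 0.297% of all genes. The median of that list was -0.25. The D-type cyclin gene *Ccnd2* was at 714 and 688 CPM against 602 and 774 CPM, with overlapping gates.

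Phase calls from the same genes showed more members in G1 and fewer in S. On cells thinned to 5000 UMIs, with 1 and 2 shallower members left out, 54.1% (95% Wilson interval 43.6 to 64.3) and 48.6% (41.3 to 55.9) of members were called G1, against 21.5% and 23.2% of *Neurog2*-negative cells. S was called in 7.06% and 16.9% of members and 37.1% and 40.3% of *Neurog2*-negative cells, and the intervals of the gates did not overlap in either replicate. G2/M was called in 38.8% and 34.5% of members against 41.4% and 36.5%, with overlapping intervals. Unthinned, 52.3% and 44.7% of members and 18.7% and 21.4% of *Neurog2*-negative cells were called G1. No test was made, as cells are not replicates and an exact permutation test of 2 against 2 samples cannot go below p = 0.333, and the calls rest on the S and G2/M genes described above.

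**Figure D3:**
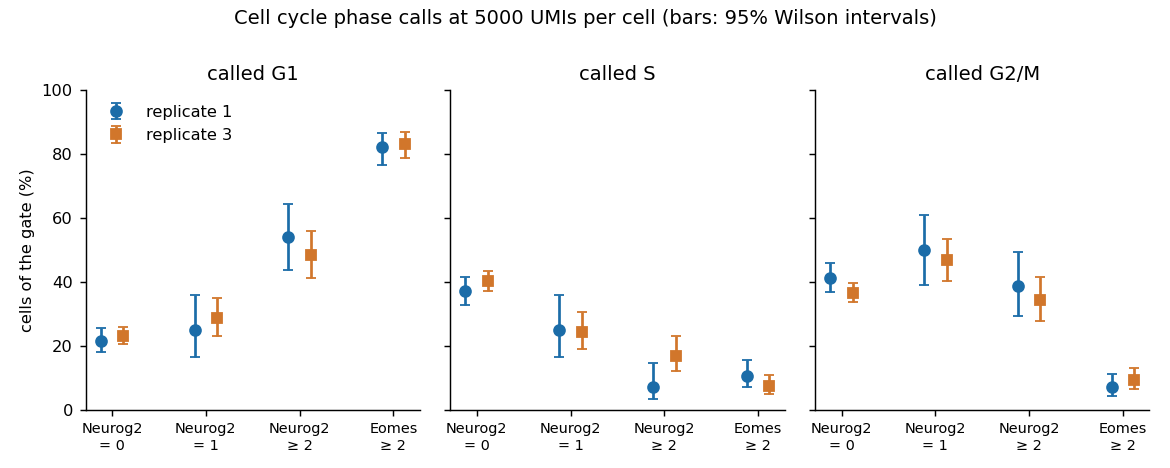
Percent of cells called G1, S or G2/M in each gate after thinning to 5000 UMIs, with 1 point for each replicate and 95% Wilson intervals as bars. Members (Neurog2 of 2 or more) have 54.1% and 48.6% of cells in G1, between the gates with 0 or 1 Neurog2 UMIs and the Eomes gate at 82.3% and 83.3%.

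The raised genes were compared within phases, because the gates differ in phase. In cells called G1 alone 42 genes were higher and 71 lower, and 29 and 18 of them were among the 58 and 37. In cells called S or G2M alone 24 were higher and 2 lower, of which 21 and 2 were shared. *Gadd45g* had a log2 fold change of 2.82 in G1 and 3.64 in S or G2M, *Hes6* 1.56 and 1.80, *Elavl4* 1.37 and 1.38, and *Fabp7* -1.48 and -1.53. Other lowered genes had less equal values, *Sema6d* -4.27 and -1.88, *Apoe* -3.39 and -0.78, *Ror1* -5.61 and -0.61, *Aldoc* -0.36 and -0.97 and *Uhrf1* -0.12 and -0.69. The difference between phases, tested as an interaction term over 11046 genes with edgeR, gave 0 calls, with 870 genes (7.88%) at an unadjusted p under 0.05. With the replicate block 2 genes passed.

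The 37 lowered genes also included *Lum* and *Col3a1*, extracellular matrix genes of meningeal fibroblasts. The 10 lowered most by the naming rule were *Rbms1*, *Sema6d*, *Anxa2*, *Dlc1*, *Ror1*, *Cdkn1c*, *Apoe*, *Timp3*, *Fabp7* and *S100a11*, with log2 fold changes from -2.71 to -1.42. *Sema6d*, a transmembrane semaphorin, was at 8.59 and 12.6 CPM in members and 80.2 and 72.4 CPM in *Neurog2*-negative cells (edgeR adjusted p = 0.00693). The cell cycle inhibitor gene *Cdkn1c* was at 12.9 and 14.1 CPM against 42.3 and 57.4 CPM, carried by 39 of 460 and 133 of 1007 *Neurog2*-negative cells. Marker lists of other cell types moved with this difference. The 6 meningeal markers summed to 18 and 21.6 CPM in members against 78.9 and 137 CPM, with *Lum* and *Foxc1* at 0 in members of both replicates. The 5 endothelial markers summed to 9.45 and 5.21 CPM against 201 and 13.6 CPM, the 4 pericyte markers to 27.5 and 2.6 CPM against 73.6 and 67.1 CPM, and the 5 microglial markers to 3.44 and 4.84 CPM against 6.77 and 12.2 CPM. The 5 markers of cortical hem and choroid plexus summed to 72.2 and 148 CPM against 226 and 6110 CPM.

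Barcodes with 3 or more UMIs over the meningeal, endothelial, pericyte and microglial lists, or over the hem and choroid list, were therefore left out in a repeat chosen after seeing the data. This took 6 and 15 members and 39 and 124 *Neurog2*-negative cells. Then 67 genes were higher and 70 lower, which held 51 of the 58 and 18 of the 37. Of the 10 named lowered genes *Fabp7* alone stayed past the threshold (log2 fold change -1.51, edgeR adjusted p = 0.0149). *Cdkn1c* went to 0.02, *Ror1* to 0.06 and *Dlc1* to 0.18, on the other side of 0. *Sema6d* was at -1.85, *Rbms1* at -1.41, *Anxa2* at -1.25 and *Timp3* at -1.08, below 0 but not past the threshold. Among the 58 raised genes *Mgat4c*, of the glycosyltransferase family that branches N-glycans, went from 2.34 to -0.15, with 27 of its 71 UMIs in members of replicate 3 lying in 1 cell. The 10 named raised genes were all called again, *Gadd45g* at 3.90 and *Dll1* at 2.87, and 15 of the 43 S phase genes were lower. Other lists moved less evenly: erythroid markers summed to 9190 and 400 CPM in members against 99.8 and 737 CPM, 6044 of the 10700 UMIs in replicate 1 lying in 1 cell. GABAergic markers summed to 61.9 and 58 CPM against 72 and 51.2 CPM, Cajal-Retzius markers to 15.5 and 119 CPM against 67 and 176 CPM, and oligodendrocyte lineage markers to 5.16 and 1.49 CPM against 60.9 and 10.8 CPM.

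**Figure D4:**
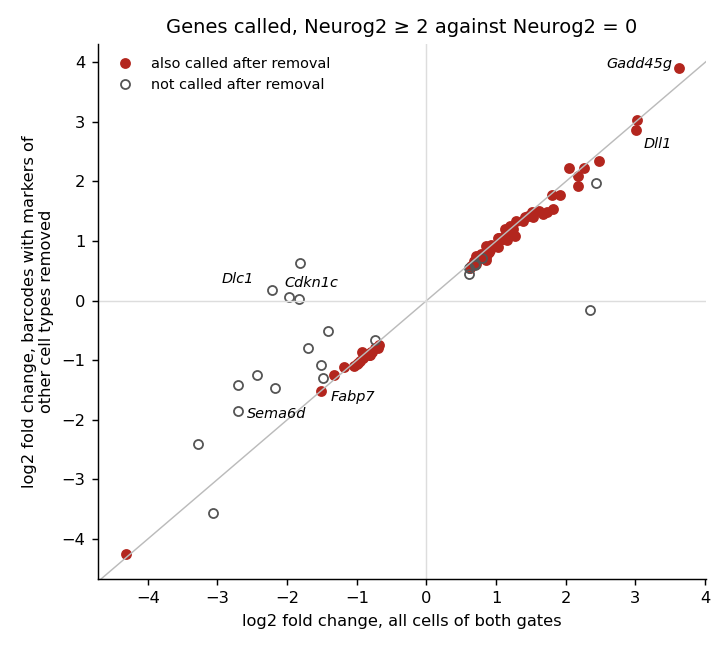
Log2 fold changes of the genes called between members and Neurog2-negative RGCs, with all cells (x axis) and after leaving out barcodes with markers of other cell types (y axis), with the line of equal values. Most raised genes lie near the line, as *Gadd45g* does at 3.62 and 3.90, but *Mgat4c* goes from 2.34 to -0.15, and *Cdkn1c* and *Dlc1* move from -1.83 and -2.22 to 0.02 and 0.18.

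Cells with exactly 1 *Neurog2* UMI showed no called difference from cells with 0. Of 12445 genes 0 were higher (0%) and 0 were lower (0%) by edgeR, with 511 at an unadjusted p under 0.05, and DESeq2 called 1 higher and 2 lower. The block gave 0 and 6. The median of the proneural list was 0.25, with 15 of 21 genes above 0 in both replicates, and that of the S phase list -0.23, with 35 of 43 below 0 in both. The median of the G2/M list was 0.22, with 52 of 54 genes above 0, 47 of them in both replicates, and 8 at an unadjusted p under 0.05. Over all genes 3399 were above 0 and 3606 below 0 in both replicates. *Gadd45g* was at 16.6 and 51.3 CPM here against 12.1 and 20.3 CPM, and *Dll1* at 2.62 and 5.19 CPM against 3.83 and 1.84 CPM, so the gates overlapped for both. Of the non-neural barcodes 6.54% and 4.46% had at least 1 *Neurog2* UMI.

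Levels by the number of *Neurog2* UMIs are given as a description. *Gadd45g* went from 68.3 and 101 CPM in members with 2 UMIs to 224 and 300 CPM with 3 to 4 and 249 and 479 CPM with 5 or more. *Insm1* went from 35.9 and 19.6 CPM to 77.4 and 40 CPM and then 93.9 and 56.8 CPM. Both genes were higher at each step within each replicate, though the replicates' values for the upper classes overlapped. Of the other genes called on the proneural list, *Sox4* also rose at each step. *Btg2*, *Cbfa2t2*, *Elavl4* and *Hes6*, and the ligand *Dll1*, fell at the last step in at least 1 replicate. *Btg2* in replicate 1, for example, went from 71.9 to 126 and then 102 CPM. *Hes1*, a gene of the rule, went from 133 and 115 CPM to 89.7 and 91.1 CPM and then 35.9 and 66.9 CPM, whereas *Notch1* stayed at 173 and 143 CPM, 139 and 155 CPM and 174 and 154 CPM. *Hes5*, also of the rule, moved unevenly, at 62.9 and 91.7 CPM, 114 and 49.7 CPM and 66.3 and 55.3 CPM. *Fabp7* was at 4510 and 2800 CPM with 0, 2780 and 1890 CPM with 1, and 1400 and 1470 CPM with 2, then at 1090 and 933 CPM with 3 to 4 and 1320 and 1080 CPM with 5 or more. These classes held 38, 20 and 28 members in replicate 1 and 87, 50 and 42 in replicate 3.

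**Figure D5:**
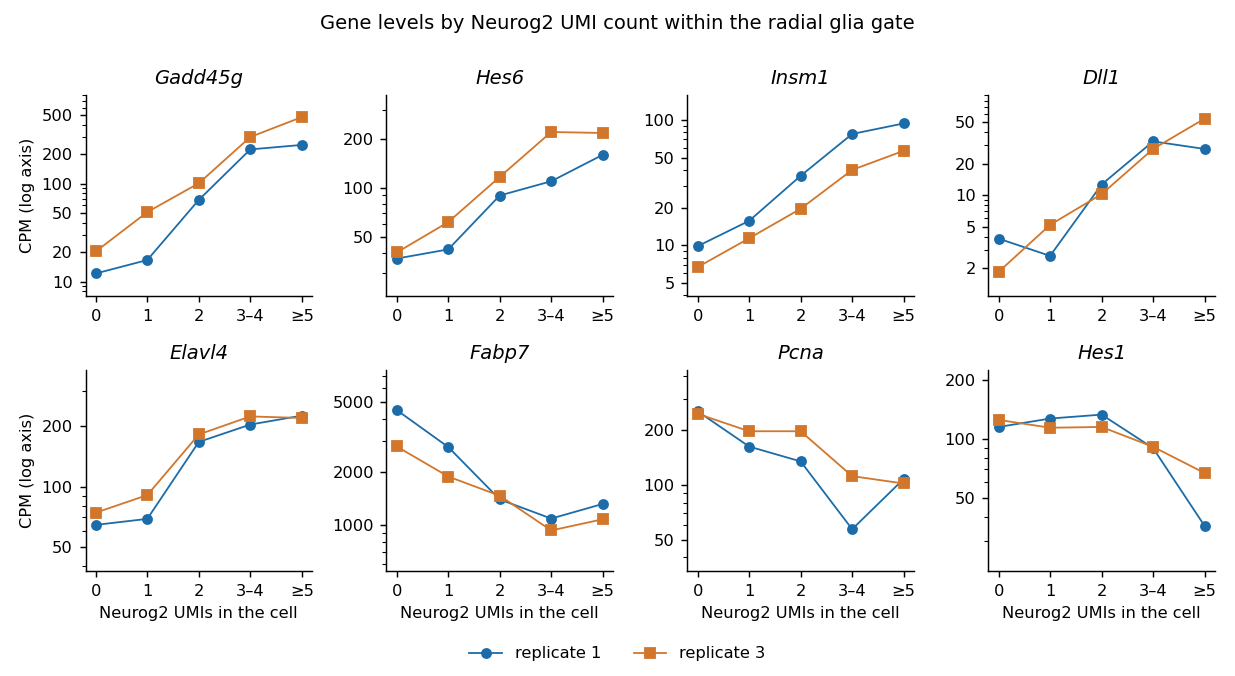
Levels of 8 genes (CPM, log axis) in summed cells of the RGC gate, by the number of Neurog2 UMIs in the cell, with 1 line for each replicate. *Gadd45g* climbs from 12.1 and 20.3 at 0 UMIs to 249 and 479 at 5 or more, and *Fabp7* drops from 4510 and 2800 to 1090 and 933 at 3 to 4 UMIs and stands at 1320 and 1080 at 5 or more.

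At 5000 UMIs a cell, 50.6% and 44.6% of members had a *Gadd45g* UMI and 50.6% and 45.8% a *Hes6* UMI, against 4.39% and 7.51%, and 17.1% and 17.6%, of *Neurog2*-negative cells. In the non-neural barcodes, taken as the background, the thinned shares were 5.71% and 6.48% for *Gadd45g* and 23.8% and 17.6% for *Hes6*, at the median depths given above. The *Hes6* shares of *Neurog2*-negative cells thus lay at or below that background, and those of *Gadd45g* within its intervals. Unthinned, *Gadd45g* was found in 62.8% and 65.4% of members and 8.7% and 15% of *Neurog2*-negative cells, and 15.9% and 13.4% of non-neural barcodes. At least 2 of *Dll1*, *Gadd45g*, *Hes6*, *Insm1* and *Btg2* were detected in 50.6% and 48.6% of thinned members, in 8.11% and 8.11% of *Neurog2*-negative cells, and in 80.9% and 85.5% of IPC-gate cells. All 5 genes had been called higher in these same members, so their excess over *Neurog2*-negative cells follows from that choice. The shares describe how the RNAs were spread over cells and are no further support. In 24.7% and 28.8% of members none of the 5 was detected, which at this depth does not show that they lacked them.

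The IPC gate was set by *Eomes*, with no lower bound on RGC genes. Against it 757 genes (6.08%) were higher in members and 567 (4.56%) lower by edgeR. On the RGC list 11 of 25 were higher and 0 lower (median 0.88), led by *Hopx*, at 43 and 22.7 CPM against 7.02 and 5.46 CPM. Members had to hold RNA of RGC genes and IPC-gate cells did not, so this list count is a description only. On the proneural list 16 of 21 were lower and 0 higher (median -1.56), among them *Gadd45g* (log2 fold change -1.85, edgeR adjusted p = 0.0192). Genes near 0 outside the IPC gate entered the test through that gate, *Neurog1* for example at 0.859 and 2.98 CPM against 29.6 and 35.8 CPM, so that the count of lower genes is a description only. *Dll1* did not pass, at 21.5 and 26.0 CPM against 43.7 and 59.5 CPM (edgeR adjusted p = 0.0559, and 0.0267 with the block).

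IPC and early neuron genes were lower in members. Of 9 IPC genes 6 were lower in members (median -3.18), such as the guidance receptor gene *Unc5d* at 45.5 and 59.9 CPM against 625 and 352 CPM, and *Kif26b* at 20.6 and 14.5 CPM against 345 and 178 CPM. Of 16 early neuron genes 10 were lower (median -1.16). Over all genes tested 4.56% were lower. Both list counts are a description only, for the reason given for the count of genes lower than in the IPC gate. Among Notch genes the Fringe *Lfng* (6.87 and 9.30 CPM against 0.78 and 1.64 CPM), *Notch2* and *Notch3* were higher in members, and *Mfng* (23.2 and 36.8 CPM against 132 and 137 CPM) was lower, as were *Maml3*, *Numbl* and *Rbpj*. The effector and Id genes *Id3*, *Id4* and *Nrarp* were higher. Of 54 G2/M genes 48 were higher in members (median 1.58) and of 43 S phase genes 14 were (median 0.51), beside 6.08% of all genes. Of IPC-gate cells 6.98% and 9.32% were called G2/M. Among the listed receptor genes, the somatostatin receptor gene *Sstr2* was at 3.44 and 5.95 CPM in members against 65.9 and 71 CPM (log2 fold change -3.65). It was low outside the IPC gate, so this is a description only. *Epha3* was at 81.6 and 98.2 CPM against 875 and 820 CPM (log2 fold change -3.23, edgeR adjusted p = 0.00154).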

How the data were processed

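The deposited values are UMI counts per gene and cell barcode, made by the authors with Cell Ranger 7.0.0 (build mm10 per the labels) from droplet-based 3' libraries of dissociated dorsal telencephalon, and were used as raw counts. The annotation and the settings for introns and cell calling were not given in the sources used here. The filter kept 5453 and 7483 barcodes, those of 1500 to 60000 UMIs with a mitochondrial share below 10%. Doublets, scored as in Scrublet, were kept (1 and 4 predicted among members) and removed as an alternative.

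The members and the gene lists were chosen with earlier results of these data known. UMIs were summed per gate and replicate, and the 8 sums of 4 gates were fitted together with edgeR 4.0.16 (quasi-likelihood test, TMM, filter on low counts, prior count of 2). The rule genes stayed in library sizes. Genes were named by rule: the 10 higher and 10 lower genes with the largest fold change past the threshold, of equal direction in both replicates and with at least 20 CPM in both replicates of the higher gate, and from each list up to 6 called and 3 uncalled genes. Other genes in the text were picked from those lists, or from the genes called, after their values were seen. Sums of 1 library are paired by origin, and their deviations correlated across genes with r from 0.0986 to 0.414. Alternatives included the replicate block, DESeq2 1.42.0, other scaling, filters, thinning, phase and depth matching. The tests were checked on simulated counts. Phases were scored with scanpy 1.11.5 from 43 S and 54 G2/M genes. Software was R 4.3.3 and Python 3.11.15.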

Additional observations from a re-analysis of the deposited data

Results flagged for a closer look

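Both results here concern the difference of members from *Neurog2*-negative cells between phases, in the interaction fit with a replicate block over 11046 genes. *Arl6ip1* had a log2 fold change of -1.16 in cells called G1 and 0.33 in cells called S or G2M, a difference of -1.49 (edgeR adjusted p = 0.00987). *Epha5* had 0.66 and -0.38, a difference of 1.03 (edgeR adjusted p = 0.0155). Without the block neither passed, at edgeR adjusted p = 0.169 and 0.328, and their cause was not tested.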

How the results depend on the processing

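The 58 genes higher and 37 lower in members than in *Neurog2*-negative cells became 305 and 409 with the replicate block, 93 and 99 by DESeq2, 307 and 742 with no filter on low counts, and 20 and 11 with only these gates in the fit. Matching *Neurog2*-negative cells on depth gave 23 and 16, in as few cells as there are members. Thinning to 5000 UMIs gave 59 and 73, and *Neurog2* of at least 3 gave 73 and 89 in 140 members. *Eomes* of 0 gave 38 and 29, cells called G1 42 and 71, and cells called S or G2M 24 and 2. Chosen after seeing the data were the removal of other cell types (67 and 70, or 305 and 438 with the block) and an *Emx1* UMI (30 and 7). Scaling by library size, doublet removal and the stricter barcode filter kept these counts within 1.5 times, and of the 58 and 37 genes called 53 and 37, 53 and 24, and 57 and 31 again.

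For 1 *Neurog2* UMI the 0 and 0 became 0 and 6 with the block, 1 and 2 by DESeq2, 40 and 222 with no filter, and 1 and 2 with the block and other types removed. Against the IPC gate, 757 and 567 became 1255 and 1033 with the block, 1349 and 1170 with the block and other types removed, and 1127 and 1043 with no filter.

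Of 30 named genes past the threshold 5 (*Btg2*, *Elavl4*, *Gadd45g*, *Serinc5* and *Slc16a14*) passed under each alternative with a test. Signs turned for *Dlc1* (0.18 with other types removed, 0.20 with the block as well, 0.61 with *Emx1*), *Ror1* (0.06 and 0.16) and *Cdkn1c* (0.02, and 0.72 with *Emx1*). Values from either replicate alone, which allow no test with 1 sum a gate, kept the sign for all 30. Unthinned, 20% of *Neurog2*-negative cells were called G1 on average. With 2 libraries, 86 members in the smaller, and *Dll1* resting on 25 and 70 UMIs, low genes were beyond reach, and the causes of these changes were not tested.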
